A study of Mus musculus with 6 samples.

Results

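The 37 genes described here belong to NADPH supply and antioxidant defence. They were found by matching a list of gene symbols to the count tables, which hold 46078 genes with no threshold on a measured value. The list holds 9 genes of NADPH supply, from the pentose phosphate pathway, mitochondria and the NAD kinases, and 28 antioxidant genes. All 37 passed the filter on low counts, together with 16813 genes in all. Growth plate cartilage was taken from the distal femur and proximal tibia of mouse embryos at E18.5, and its RNA was sequenced in bulk. The 3 controls were Idh1 LSL/+ and the 3 Idh1 mutants were Col2a1-Cre; Idh1 LSL/+, so that both groups carried the lox-stop-lox allele and the mutants alone carried Cre. The presence of Cre and the expression of mutant Idh1 therefore cannot be told apart. Col2a1-Cre removes the stop in cells that use the collagen II promoter, mainly chondrocytes, while the libraries hold RNA of the whole dissected tissue.

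NADPH is the reducing agent of the cell. Glucose-6-phosphate dehydrogenase and phosphogluconate dehydrogenase make it in the pentose phosphate pathway, and malic enzymes, Nnt and the normal isocitrate dehydrogenases add to it. Mutant Idh1 instead spends NADPH when it reduces alpha-ketoglutarate to hydroxyglutarate. Glutathione reductase and the thioredoxin reductases pass the electrons of NADPH to glutathione and thioredoxin, which in turn supply the glutathione peroxidases and peroxiredoxins that break down peroxides. Nfe2l2 (also called Nrf2) is the transcription factor that raises many of these genes under oxidative stress, and Keap1 holds it in check. Cartilage has few blood vessels, and chondrocytes live at low oxygen.

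Nfe2l2 acts through the antioxidant response element, whose core was searched for as TGACNNNGC on both strands (read as GCNNNGTCA on the other) in RefSeq promoter windows from 250 bases before to 50 bases after each start (GRCm38.p6). Of the 37 genes, 29 had a window, and 8 of these (27.6%) held the core, against 14.0% of 27025 genes in the table. The 8 were G6pdx, Pgd, Gclm, Txnrd1, Prdx1, Srxn1, Sod1 and Nfe2l2. The window of Nqo1 held no core, and Hmox1 and Gclc had no window. The 6 stretches in which the core lay wholly before the start are shown. Each runs in the direction of its gene, with the core in capitals.
G6pdx, chrX:74428917-74428949, reverse strand: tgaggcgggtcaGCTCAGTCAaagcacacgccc
Gclm, chr3:122245411-122245443, forward strand: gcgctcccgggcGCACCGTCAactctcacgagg
Txnrd1, chr10:82859102-82859134, forward strand: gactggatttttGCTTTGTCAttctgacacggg
Prdx1, chr4:116685454-116685486, forward strand: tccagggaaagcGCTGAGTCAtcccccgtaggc
Sod1, chr16:90220694-90220726, forward strand: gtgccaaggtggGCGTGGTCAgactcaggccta
Nfe2l2, chr2:75704883-75704913, reverse strand: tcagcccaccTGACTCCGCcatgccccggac
The first capital lay 57, 134, 92, 133, 56 and 240 bases before the start in the order shown. These are matches of letters, and binding of Nfe2l2 was not measured.

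Library totals ran from 23445687 to 30415773 counts, and 3 counts, taken as the floor of detection, came to between 0.0986 and 0.128 CPM (counts scaled to library size with edgeR's TMM factors). The floor covers counting error only. By sex-linked RNA, mutant 3 was female and the other libraries were male. Mutant 3 had 26356 counts of Xist against 0 to 13 in the other libraries, and no counts of Ddx3y, Eif2s3y, Kdm5d and Uty. Sex was not a term in the fit, and it cannot be told apart from that single library. The chondrocyte gene Col2a1 stood at 3240, 4280 and 1923 CPM across controls and 5245, 3659 and 3972 CPM across mutants, and none of the 10 chondrocyte markers was absent. Other cells were present as well. In controls the mean summed CPM was 38858 for 7 osteoblast genes, 19275 for 8 skeletal muscle genes and 7229 for the 10 chondrocyte genes. Col1a1, in the osteoblast list, alone had a control mean of 38134 CPM. Such sums rest on the genes listed and do not give shares of cells. The summed level of 7 erythroid genes was 551, 1591 and 644 CPM across controls and 291, 431 and 331 CPM across mutants, and 6 of the 7 had an unadjusted p under 0.05, all lower. The summed level of 5 tendon and ligament genes was 2993, 3155 and 3288 CPM across controls and 2261, 2004 and 2341 CPM across mutants. The edgeR fit called 0 of the 7 erythroid genes and 1 of the 5 tendon genes, Tnmd, and DESeq2 called 2 and 4 of them, all lower. In neither list did the sums of the groups overlap, and their part in the values given here was not tested. In bulk tissue, fewer cells of a type and less RNA per cell cannot be told apart.

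No gene of NADPH supply or antioxidant defence passed the test between genotypes. The edgeR quasi-likelihood fit, adjusted by Benjamini-Hochberg over 16813 genes, called 0 of the 37 at an adjusted p under 0.05, against 32 of all genes (0.19%). Of those 32, 9 were higher (0.0535%) and 23 lower (0.137%) in the mutants. DESeq2 also called 0 of the 37, against 193 of all genes (1.15%). At an unadjusted p under 0.05, edgeR had 1 of the 37, Gpx3, against 8.64% of all genes (3.71% higher and 4.93% lower), and DESeq2 had 1 as well. The groups did not overlap for 3 of the 37, Gclm, Gpx3 and Prdx6, against 14.4% of all genes, and in each the mutants lay below the controls (7.58% of all genes, with 6.85% above).

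The log2 fold changes (mutant minus control) lay between -0.37 and 0.22. They were above 0 for 19 genes and below 0 for 18, against 49.3% above 0 over all tested genes. Their median was 0.0023, where that of all tested genes was -0.0026. The median size of the change, sign aside, was 0.0793 for the 37 genes and 0.116 for all tested genes. The ratio of mean CPM lay between 0.9 and 1.1 for 33 of the 37.

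**Figure D1:**
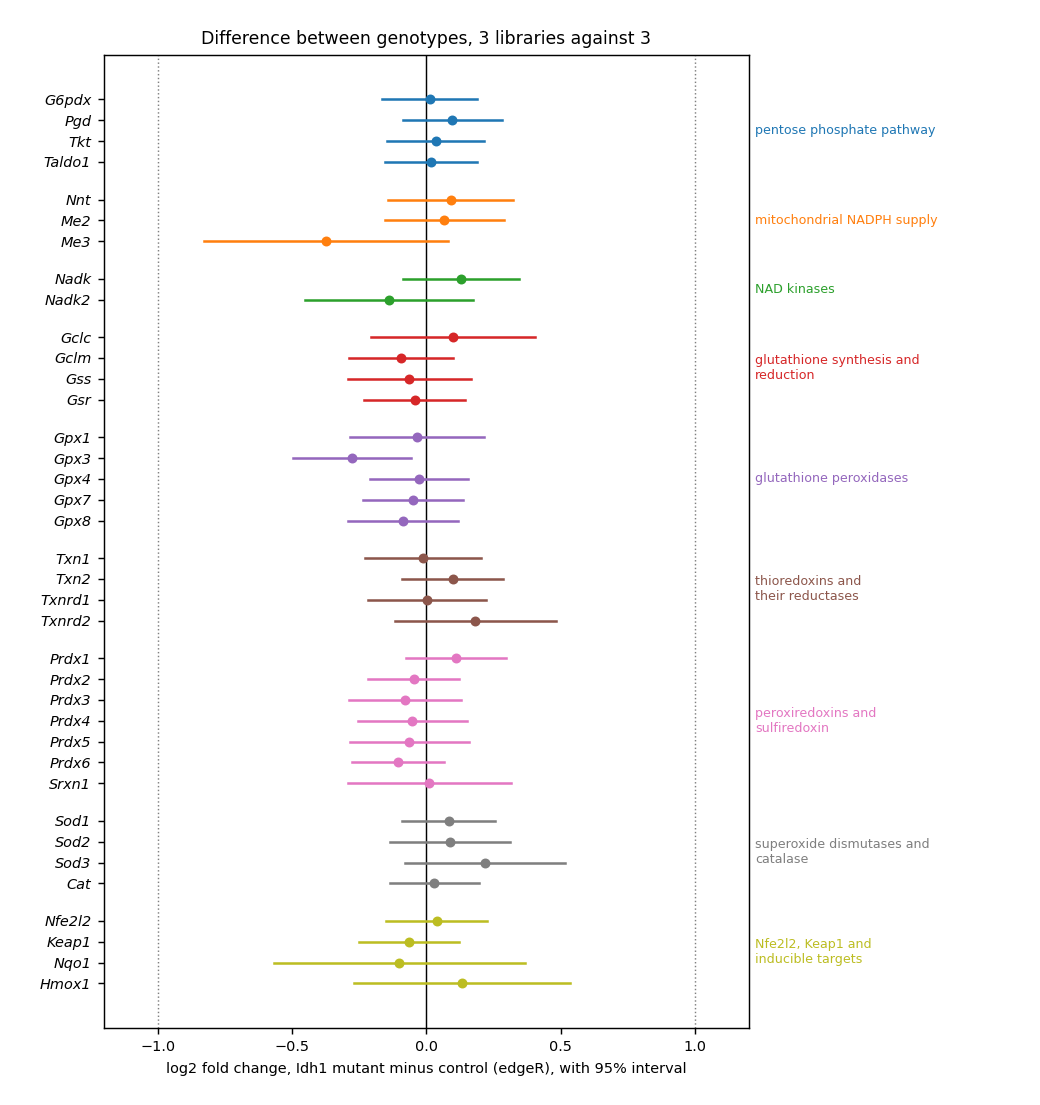
Log2 fold change of each of the 37 genes, Idh1 mutant minus control, on the horizontal axis, with the genes grouped by role; points are edgeR estimates and bars 95% intervals from 3 libraries against 3. All 37 intervals lie within 1 log2 unit of 0, and the interval of Gpx3 alone leaves out 0.

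A test that misses its threshold does not show equal levels, so the intervals were examined. The 95% interval of the log2 fold change lay within 1 unit of 0 for 37 of 37 genes, and within 0.5 units for 33 (89.2%). Over all tested genes the shares were 81.2% and 56.6%. Both bounds were chosen after the values were seen. The median standard error was 0.0927 for the 37 genes and 0.130 for all tested genes. The genes were well covered, with 81 to 5058 counts in a library and more than 10 CPM in every library for 34 of them.

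**Figure D2:**
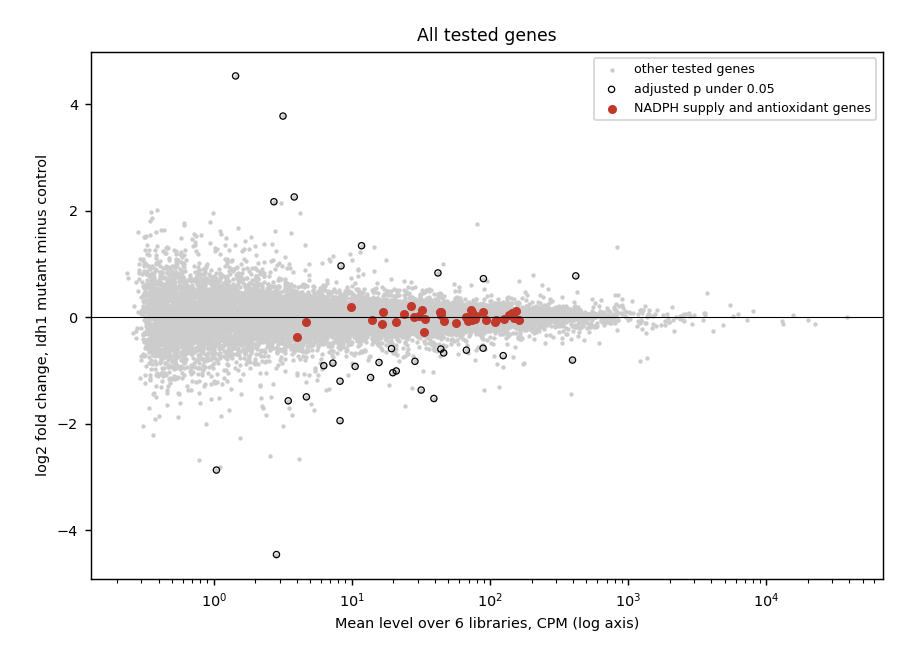
Log2 fold change, Idh1 mutant minus control, against the mean level in CPM over 6 libraries (log axis), for all 16813 tested genes; the 37 genes are filled red and the 32 genes with an adjusted p under 0.05 are ringed. The 37 genes lie close to 0 and none is ringed.

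Levels differed far more between genes than between genotypes. Per kilobase of annotated exon, the mean over the 6 libraries ran from 0.274 CPM per kilobase for Me3, a mitochondrial malic enzyme, to 225 for Sod1, the cytosolic superoxide dismutase. After Sod1 came Txn1, the cytosolic thioredoxin, at 141, and Gpx8, a peroxidase of the endoplasmic reticulum, at 108. Gpx1, the cytosolic glutathione peroxidase, had 87.7 and Gpx7, also of the endoplasmic reticulum, had 72.2. The peroxiredoxins Prdx2, Prdx4 and Prdx1 followed at 53.0, 52.8 and 50.9, so close that their order is not set by these data. At the low end above Me3 were Gss at 2.35, Txnrd2 at 2.92, Nqo1 at 2.997 and Gclm at 3.29 CPM per kilobase.

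**Figure D3:**
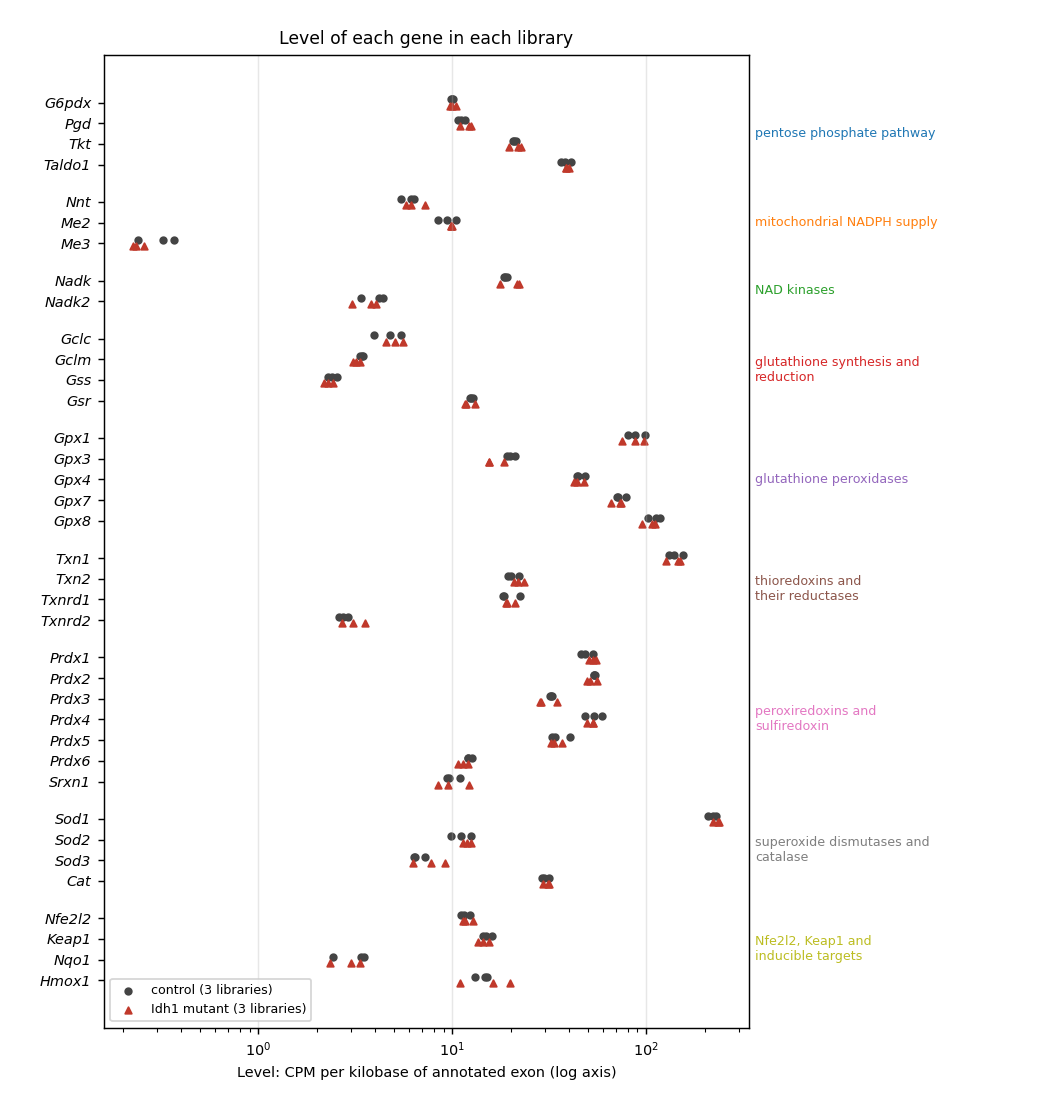
Level of each of the 37 genes in each library in CPM per kilobase of annotated exon (log axis), with controls and Idh1 mutants marked apart and genes grouped by role. Genes span 0.274 (Me3) to 225 (Sod1), while the 6 libraries of a gene span far less. Hmox1, for example, ran from 23.7 to 42.9 in CPM.

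Among the 9 genes of NADPH supply, Tkt and Taldo1 were counted although they make no NADPH themselves, and the NAD kinases although they act by making NADP. The 9 genes were measured at nearly equal summed levels in the 2 groups. Their sum was 484, 461 and 471 CPM across controls and 466, 498 and 502 CPM across mutants (472 ± 11.4 against 489 ± 19.7, SD, n = 3). The groups overlapped. Of the 9, 7 had a log2 fold change above 0 and 2 below, with a median of 0.03, and none passed the test.

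In the pentose phosphate pathway all 4 genes had estimates above 0, between 0.01 and 0.10, and none passed the test. Without control 2, 3 of the 4 were above 0, and without mutant 3, 2 of the 4. G6pdx, the X-linked enzyme of the first and rate-limiting step, had 30.5, 31.2 and 30.4 CPM across controls and 30.6, 30.0 and 32.2 CPM across mutants. The groups overlapped, and its log2 fold change was 0.01 (SE 0.079, 95% interval -0.16 to 0.19, edgeR adjusted p = 0.985). Of its exon length, 13.6% is shared with Ikbkg, and reads there were not assigned to either gene. Pgd, which makes the second NADPH of the pathway, had 74.9, 68.5 and 71.3 CPM across controls and 70.3, 78.7 and 80.6 CPM across mutants. Mutants 2 and 3 lay above every control and mutant 1 did not (log2 fold change 0.10, SE 0.082, edgeR adjusted p = 0.816). Tkt and Taldo1, which return pentoses to glycolysis, had log2 fold changes of 0.03 and 0.02.

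Mitochondrial NADPH supply was represented by Nnt, Me2 and Me3. Nnt, the transhydrogenase of the inner membrane, had 44.8, 38.3 and 43.1 CPM across controls and 50.6, 43.2 and 40.6 CPM across mutants. The groups overlapped (log2 fold change 0.09, SE 0.10, 95% interval -0.14 to 0.32, edgeR adjusted p = 0.879). The reference strain of this genome, C57BL/6J, lacks several Nnt exons, and the labels name no strain. Me3 had 3.48, 5.38 and 4.70 CPM across controls and 3.43, 3.74 and 3.31 CPM across mutants. Control 1 lay among the mutants, while the other controls lay above them. Its log2 fold change of -0.37 was the lowest of the 37 with all 6 libraries (SE 0.20, 95% interval -0.83 to 0.08, edgeR adjusted p = 0.676). It ran from -0.53 without control 1 to -0.22 without control 2, where Gpx3 was lower at -0.31. Me2 had a log2 fold change of 0.07.

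The NAD kinases add the phosphate that turns NAD into NADP. Nadk, the cytosolic kinase, had 69.9, 71.2 and 68.8 CPM across controls and 65.8, 80.8 and 82.9 CPM across mutants. Mutant 1 lay below every control and the other mutants above (log2 fold change 0.13, SE 0.096, edgeR adjusted p = 0.784). Nadk2, the mitochondrial kinase, had a log2 fold change of -0.14.

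Genes of glutathione synthesis and reduction differed little. Gclm, the modifier subunit of the ligase that makes the first bond of glutathione, had 21.4, 21.1 and 21.7 CPM across controls and 19.2, 20.9 and 20.02 CPM across mutants. Every mutant lay below every control, by a small margin. The log2 fold change was -0.09 (SE 0.087, edgeR adjusted p = 0.834). The other 3 did not separate the groups, at log2 fold changes of 0.10 for Gclc, the catalytic subunit, -0.06 for Gss, glutathione synthetase, and -0.04 for Gsr, glutathione reductase. Of the exon length of Gss, 15.4% is shared with other genes.

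All 5 glutathione peroxidases had estimates below 0, and 1 had an unadjusted p under 0.05. Gpx3, the secreted peroxidase of extracellular fluid, had 38.2, 34.6 and 35.9 CPM across controls and 28.1, 33.6 and 27.9 CPM across mutants (36.2 ± 1.81 against 29.9 ± 3.26, SD, n = 3). Every mutant lay below every control, and mutant 2 came within about 1 CPM of control 2. The log2 fold change was -0.28 (SE 0.098, 95% interval -0.50 to -0.06). Its unadjusted p was 0.0182, which ranked 663 among all genes, and its adjusted p was 0.456 by edgeR's quasi-likelihood test and 0.486 by DESeq2, so that Gpx3 did not pass. With 1 library left out, its unadjusted p from edgeR went above 0.05 in 3 of 6 fits, without control 1, mutant 1 or mutant 3. An exact two-sided permutation test gave p = 0.1, the smallest that 3 libraries against 3 allow. The erythroid and tendon sums given above moved in the same direction as Gpx3, and their part in it was not tested. The other 4 had log2 fold changes of -0.04 (Gpx1), -0.03 (Gpx4, which protects membrane lipids), -0.05 (Gpx7) and -0.09 (Gpx8). Without control 2, or without mutant 1, 2 of the 5, Gpx3 and Gpx8, remained below 0.

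Thioredoxins and their reductases were near 0 in the cytosol, at log2 fold changes of -0.01 for Txn1 and 0.002 for Txnrd1. Their mitochondrial counterparts were measured higher without passing the test. Txn2 had 81.7, 84.1 and 93.2 CPM across controls and 87.3, 98.1 and 91.8 CPM across mutants (log2 fold change 0.10, SE 0.084, edgeR adjusted p = 0.817). Control 3 lay among the mutants. Txnrd2 had 8.74, 9.72 and 9.14 CPM across controls and 10.3, 11.9 and 9.10 CPM across mutants (log2 fold change 0.18, SE 0.13, edgeR adjusted p = 0.782). Mutant 3 lay among the controls.

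Of the peroxiredoxins and sulfiredoxin, 2 had estimates above 0 and 5 below. Prdx1, a cytosolic peroxidase and a known Nfe2l2 target, had 161, 139 and 147 CPM across controls and 153, 167 and 162 CPM across mutants. Control 1 lay among the mutants (log2 fold change 0.11, SE 0.083, edgeR adjusted p = 0.791). Prdx2, which is abundant in red blood cells, had 163, 165 and 165 CPM across controls and 157, 169 and 151 CPM across mutants. The controls lay within the range of the mutants (log2 fold change -0.05, SE 0.076, 95% interval -0.22 to 0.12, edgeR adjusted p = 0.920). The erythroid sum was lower in the mutants, at a ratio of means of 0.378, beside a ratio of 0.967 for Prdx2. Prdx6, which also acts on phospholipids, had 57.6, 58.0 and 60.8 CPM across controls and 51.6, 57.6 and 54.7 CPM across mutants. Every mutant lay below every control, mutant 2 by less than 0.1 CPM (log2 fold change -0.11, SE 0.077, edgeR adjusted p = 0.775). The log2 fold changes were -0.08 for the mitochondrial Prdx3, -0.05 for Prdx4 of the endoplasmic reticulum, and -0.06 for Prdx5. Srxn1, which repairs overoxidised peroxiredoxins, was at 0.01. Prdx5 shares 19.1% of its exon length with Trmt112.

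The superoxide dismutases and catalase all had estimates above 0, and none passed the test. Their summed level was 277, 292 and 291 CPM across controls and 299, 309 and 302 CPM across mutants, a ratio of means of 1.06. The sums did not overlap, while those of every other role did, as did each of the 4 genes alone. Of all tested genes taken singly, 14.4% did not overlap. Sod3, the extracellular enzyme bound to matrix, had 23.9, 26.9 and 23.6 CPM across controls and 23.4, 28.9 and 34.1 CPM across mutants. Mutant 1 lay below every control and mutants 2 and 3 above. Its log2 fold change of 0.22 was the highest of the 37 with all 6 libraries (SE 0.13, 95% interval -0.08 to 0.51, edgeR adjusted p = 0.720). It ran from 0.076 without mutant 3, where it was no longer the highest, to 0.34 without mutant 1. Sod1, Sod2, the mitochondrial enzyme, and Cat, which splits hydrogen peroxide, had log2 fold changes of 0.08, 0.09 and 0.03, and their groups overlapped.

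Nfe2l2, Keap1 and the inducible targets did not separate the genotypes. Nfe2l2 had 42.1, 46.5 and 43.4 CPM across controls and 43.0, 48.4 and 44.1 CPM across mutants (log2 fold change 0.04, SE 0.084, edgeR adjusted p = 0.951). Keap1 had 66.8, 75.0 and 69.8 CPM across controls and 63.2, 67.1 and 72.2 CPM across mutants (log2 fold change -0.06, SE 0.083, edgeR adjusted p = 0.894). Both genes overlapped between groups, and the activity of Nfe2l2, which is set largely by protein stability, was not measured. Nqo1, a quinone reductase much used as a readout of Nfe2l2, had 5.43, 5.25 and 3.76 CPM across controls and 5.21, 3.62 and 4.65 CPM across mutants. Its groups overlapped, and its interval was wide (log2 fold change -0.10, 95% interval -0.57 to 0.37, edgeR adjusted p = 0.947). Hmox1, the inducible heme oxygenase, had 28.3, 31.9 and 32.6 CPM across controls and 23.7, 35.0 and 42.9 CPM across mutants. The mutants spread on both sides of the controls (log2 fold change 0.13, SE 0.18, 95% interval -0.27 to 0.54, edgeR adjusted p = 0.902). The genes with the core in their promoter window, shown above, were not set apart, with G6pdx, Txnrd1, Srxn1 and Nfe2l2 between 0.002 and 0.04, Sod1, Pgd and Prdx1 between 0.08 and 0.11 and Gclm at -0.09.

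**Figure D4:**
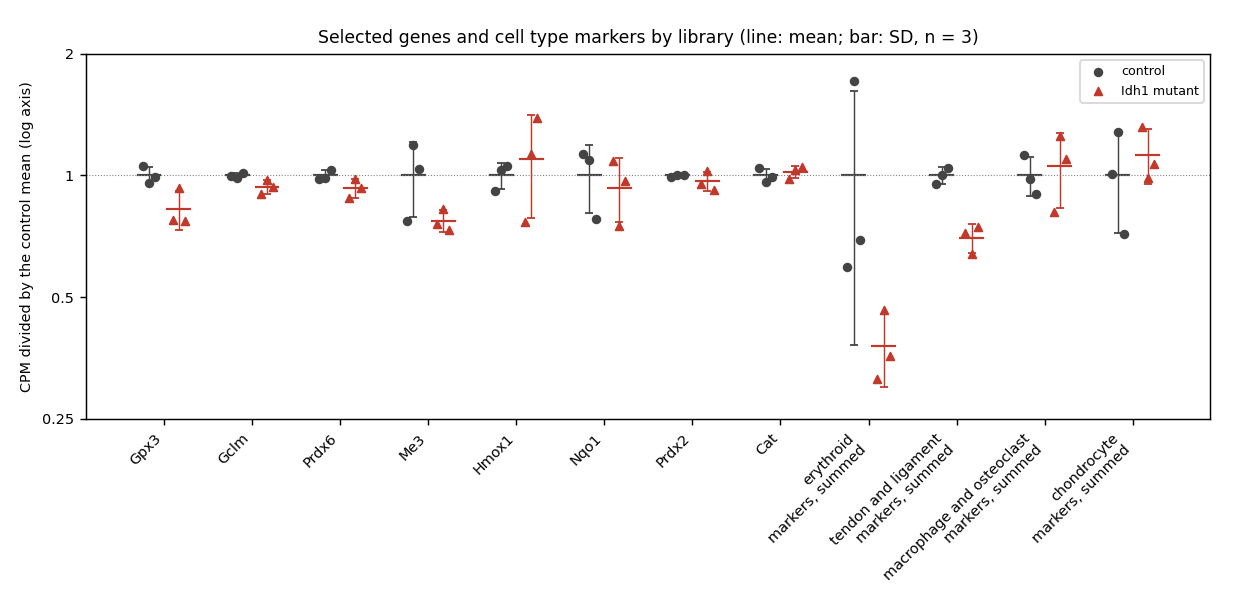
CPM in each library divided by the control mean (log axis) for selected genes and for summed markers of other cell types; points are libraries, lines the means and bars the SD of 3. Gpx3 lies below its control mean in all 3 mutants, by less than the erythroid sum, whose ratio of means is 0.378.

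The 28 antioxidant genes together summed to 1922 ± 57.2 CPM across controls and 1916 ± 104 CPM across mutants (SD, n = 3), with 12 estimates above 0 and 16 below and a median of -0.03. By compartment, grouped after the values were seen, genes of NADPH supply were counted together with antioxidant genes. The 8 genes counted as mitochondrial were Nnt, Me2, Me3, Nadk2, Txn2, Txnrd2, Prdx3 and Sod2. They had 5 estimates above 0 and 3 below, though Nnt was below 0 without mutant 1, and Me2 without control 3. The 3 genes of the endoplasmic reticulum, Gpx7, Gpx8 and Prdx4, were all below 0, at a median of -0.05, though Gpx7 and Prdx4 were above 0 without control 2, and Gpx7 also without mutant 1.

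Of 83 other genes in the same pathways, 79 were tested and 1 passed, against 0.19% of all genes. That gene was Aldh1l2, whose call was known when the lists were written, so that the count is no independent result. Aldh1l2, the mitochondrial folate enzyme that makes NADPH as it oxidises formyl-tetrahydrofolate, had 67.3, 63.1 and 72.6 CPM across controls and 99.7, 121 and 115 CPM across mutants. Every mutant lay above every control, and Aldh1l2 rose by a log2 fold change of 0.72 (SE 0.094, edgeR adjusted p = 0.0355, DESeq2 adjusted p = 1.295e-07). The edgeR call was lost without control 1, control 2, mutant 2 or mutant 3, and with the replicate number as a block (log2 fold change 0.72, edgeR adjusted p = 0.136). With 1 library left out the log2 fold change ran from 0.67 to 0.80. Mthfd2, which precedes it in mitochondrial folate metabolism, had 34.6, 27.5 and 27.9 CPM across controls and 36.6, 49.2 and 40.2 CPM across mutants and did not pass (log2 fold change 0.49, SE 0.13, edgeR adjusted p = 0.286). The other 3 folate enzymes did not pass, at log2 fold changes of 0.13 for Mthfd1, -0.14 for Mthfd2l and -0.81 for Aldh1l1. The folate list thus had 3 estimates above 0 and 2 below. Aldh1l1 had 2.10, 2.68 and 4.88 CPM across controls and 2.92, 1.42 and 1.17 CPM across mutants. Its groups overlapped, and its unadjusted p was 0.0744 with edgeR and 0.0401 with DESeq2. Of the 8 other NADPH and pentose phosphate enzymes 0 passed, and the lowest p belonged to Me1, the cytosolic malic enzyme (log2 fold change 0.13), and Rpia (-0.11). Idh1 itself, the targeted gene, had 37.3, 39.2 and 65.4 CPM across controls and 47.6, 47.7 and 56.3 CPM across mutants. The groups overlapped, and counts per gene do not separate the mutant allele from the normal one.

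Among 23 tested genes of glutathione transport, breakdown and conjugation 0 passed with edgeR, 4 had an unadjusted p under 0.05, and DESeq2 called 1. Slc7a11, the cystine importer, had 0.462, 0.294 and 0.397 CPM across controls and 1.06, 1.30 and 0.965 CPM across mutants. Every mutant lay above every control at these low levels (log2 fold change 1.52, SE 0.34, edgeR adjusted p = 0.166). Gstm2, a glutathione transferase, had 13.2, 17.2 and 15.03 CPM across controls and 8.60, 9.83 and 11.2 CPM across mutants. Every mutant lay below every control (log2 fold change -0.62, SE 0.14), with an adjusted p of 0.171 by edgeR and 0.0191 by DESeq2. None of the 15 other thioredoxin and thiol repair genes passed with edgeR or DESeq2. At an unadjusted p under 0.05 each tool had 1, Sesn2 with edgeR and Txndc5 with DESeq2. The lowest p by edgeR belonged to Sesn2, a stress-induced regulator (log2 fold change 0.33), and Txndc5, a disulfide isomerase of the endoplasmic reticulum (0.20). None of the 19 genes listed as other Nfe2l2 partners and targets passed or had an unadjusted p under 0.05 with edgeR or DESeq2. Their lowest p belonged to Abcc1, which exports glutathione conjugates (0.20), and Ephx1, an epoxide hydrolase (0.24). The list of 19 does not hold every Nfe2l2 target. Slc7a11, counted above with the glutathione genes, had an unadjusted p of 0.00131 with edgeR and 0.00208 with DESeq2.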

How the data were processed

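RNA of growth plate cartilage was sequenced from 3 control and 3 Idh1 mutant samples, grouped by the genotype and title in the labels. The authors trimmed reads (Trim Galore 0.6.4), mapped them to GRCm38 (STAR 2.6.1d) and counted them per gene with featureCounts 1.6.4, ignoring strand and leaving out reads of several places or genes. The deposited values are raw counts per gene and library. Counting in this way removes reads in exons shared by overlapping genes, which concerned 9 of the 37 genes. The labels do not say that samples came from separate animals, so p-values measure the spread between these samples. Their text on animal care gives 2 months, and the age label E18.5 was used. The authors describe the controls as littermates and used litter as well as genotype in their DESeq2 fit. The labels give no litters and do not say that replicate numbers stand for them. Litter was therefore not a term here, and its part in the calls was not tested.

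Counts were analysed with edgeR 4.0.16 in R 4.3.3 (filterByExpr with minimum count 10 and minimum total 15, TMM factors, glmQLFit and glmQLFTest, genotype as the one term), with Benjamini-Hochberg adjustment over 16813 genes and a threshold of 0.05. Standard errors and intervals come from the same fit. Alternatives were DESeq2 1.42.0, upper-quartile factors, no low-count filter, at least 10 counts in every library, the replicate number as a block, and each library left out. Replicate libraries differed beyond counting noise, at 11.6 to 45.1 chi-square units per degree of freedom. The exact permutation test was run on log2(CPM + 0.01). The functions were tested on simulated data. Figures were drawn with matplotlib 3.10.9. The 37 genes and all lists were chosen with earlier results of these data known, among them the call of Aldh1l2. Named in full were the 10 of the 37 with the lowest p, 8 listed genes, and in each other list the called genes and the lowest 2 p-values. The number of columns of per-sample values left unused was 0.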

Additional observations from a re-analysis of the deposited data

How the results depend on the processing

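None of the 37 genes was called under any alternative run, by edgeR or DESeq2. Over all genes, 32 calls became 193 with DESeq2, 259 with no low-count filter and 3 with the replicate block. Calls among other pathway genes, 1 with edgeR, became 2 with DESeq2 (Aldh1l2 and Gstm2), 3 with no low-count filter (also Mthfd2) and 0 with the block (Aldh1l2 lost). Replicate numbers gave no sign of pairing (correlations of same-numbered deviations -0.18, -0.0078 and -0.18, and no library correlated best with its own number). Near-zero estimates changed sign for Txnrd1 with no low-count filter (-0.0025) and for Srxn1 with the block (-0.0031). The cause was not tested. Of 185 such results for the 37 genes, 183 kept their direction.

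With each library left out in turn, calls over all genes ran from 3 to 17, with fewer samples in the fit. Calls among other pathway genes ran from 0 to 1. Members with an unadjusted p under 0.05 ran from 0 (without mutant 3) to 3 (Nadk, Sod3 and Hmox1, all higher, without mutant 1). Members whose groups did not overlap ran from 5 to 9, with fewer samples to overlap. For both of these member counts the share over all tested genes was not computed in these fits. They are therefore no result about the members. The median log2 fold change of the 37 ran from -0.026 to 0.028. That of Gpx3 ran from -0.37 to -0.23. The sign changed for 25 of 222 results, with ranges of -0.019 to 0.038 (G6pdx), -0.015 to 0.093 (Tkt), -0.016 to 0.066 (Taldo1), -0.0059 to 0.16 (Nnt), -0.0041 to 0.15 (Me2), -0.011 to 0.22 (Gclc), -0.12 to 0.056 (Gpx1), -0.071 to 0.025 (Gpx4), -0.079 to 0.0051 (Gpx7), -0.065 to 0.0598 (Txn1), -0.0496 to 0.10 (Txnrd1), -0.12 to 0.028 (Prdx4), -0.12 to 0.041 (Prdx5), -0.16 to 0.12 (Srxn1), -0.0098 to 0.085 (Nfe2l2), -0.25 to 0.037 (Nqo1) and -0.076 to 0.33 (Hmox1). The lowest count of any of the 37 genes in a library was 81, for Me3, and how far depth set the width of its interval was not tested.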

Other observations

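NADPH oxidases are the enzymes that spend NADPH to make superoxide. Of 10 listed subunit and related genes, 9 were tested and 0 were called by edgeR or DESeq2, with 1 at an unadjusted p under 0.05 by each. Ncf1, the cytosolic organizer of the phagocyte oxidase, had 14.5, 11.7 and 9.79 CPM across controls and 13.4, 18.6 and 17.99 CPM across mutants (log2 fold change 0.47, SE 0.17, edgeR adjusted p = 0.469). Control 1 lay among the mutants. The summed level of 8 macrophage and osteoclast markers was 599, 523 and 480 CPM across controls and 433, 668 and 585 CPM across mutants, so that the groups overlapped. Of the 8, 7 had estimates above 0, and 3 had an unadjusted p under 0.05, Ptprc (log2 fold change 0.58), Lyz2 (0.99) and Csf1r (0.24), while Ctsk was at -0.36. None was called by edgeR or DESeq2. The estimates of these 7 had the same sign as that of Ncf1, and their part in it was not tested. Single marker genes here and in the lists given next were named after their values were seen. Duox2, a dual oxidase, lay between 0.138 and 0.746 CPM in the 6 libraries and its groups overlapped (log2 fold change -1.11, SE 0.56, edgeR adjusted p = 0.651).

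Other marker lists were read gene by gene as well as by sum, since a few abundant genes carry the sums, and edgeR called none of the genes in the osteoblast, chondrocyte and endothelial lists, nor did DESeq2. The osteoblast sum had a ratio of means (mutant over control) of 1.03, and most of it was Col1a1 (log2 fold change 0.01). All 7 osteoblast genes had estimates above 0, at a median of 0.49, and Ibsp (1.32) and Dmp1 (1.75) had an unadjusted p under 0.05. The chondrocyte sum had a ratio of 1.12, led by Col2a1 (0.45), while 7 of the 10 genes had estimates below 0, at a median of -0.14. The endothelial sum had a ratio of 1.06, and 5 of 6 genes had estimates above 0. Kdr (0.25) and Emcn (0.30) had an unadjusted p under 0.05, with every mutant above every control. The skeletal muscle and fat sums had ratios of 1.02 and 1.03, and their groups overlapped. The epidermal sum was 7.49, 15.7 and 12.4 CPM across controls and 6.36, 6.42 and 6.13 CPM across mutants. Of its 4 genes 2 were tested, and edgeR and DESeq2 both called Krt5. Krt5 had 2.95, 7.90 and 5.53 CPM across controls and 0.339, 0 and 0.379 CPM across mutants. Its log2 fold change was -4.46 (edgeR adjusted p = 0.0355, DESeq2 adjusted p = 0.00256), beside -0.04 for Krt10.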
